A study of Mus musculus with 5 samples.

Results

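Lysosomal genes of 3 kinds were followed through 5 mouse RNA sequencing libraries: those for the hydrolases of the lysosome and their activators, for its membrane proteins, and for the proton pump that acidifies it. The set was made of 33 named genes, which include the transcription factor genes Tfeb and Tfe3, and of 22 further genes whose symbols begin with Atp6v. These 55 members, of 34970 genes in the table, were picked by gene name, and 2 pseudogene rows with the same prefix were left out. MCC, the myeloid-like cell complex of a study on turning fibroblasts directly into macrophages, was the library of interest. It was set against MEF (mouse embryonic fibroblasts), BM (bone marrow), PB (labelled as blood cells and described in the design text as CD45+ cells) and iPSC (induced pluripotent stem cells). All 5 libraries were polyA RNA of wild type mouse cells, with no treatment, strain, age or sex given, and each group was 1 library. The labels do not say how the MCC cells were made, from which fibroblasts, or whether cells were pooled.

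The lysosome is the acidic compartment in which cells break down proteins, sugars, lipids and nucleic acids taken up from outside or delivered by autophagy. Its soluble hydrolases work at low pH, which is held by the V-ATPase, a rotary pump whose cytosolic V1 sector splits ATP and whose membrane V0 sector carries protons. Macrophages, which digest what they engulf, are known for abundant lysosomes, and inherited loss of many of these enzymes causes lysosomal storage disease. TFEB and TFE3 are related transcription factors that are known to activate many lysosomal genes through promoter elements built around the letters CACGTG.

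Promoters were therefore searched for CACGTG, which reads the same on both strands, from 250 bases before to 50 bases after the gene start in RefSeq annotation of GRCm38.p6. A window was matched for 46 of the 55 members, and 12 of these genes (26.1%) held CACGTG, against 2187 of 27025 genes of the genome (8.09%). In the members all 19 of the 19 cores had a T next to them on one or the other strand (TCACGTG), and 4.29% of all genes held that longer motif. The shares by role were 3 of 5 for the membrane proteins, 4 of 11 for the glycosidases, 3 of 7 for the V0 subunits, 1 of 3 for the sulfatases and 1 of 10 for the V1 subunits, with 0 in the other roles. The stretches around the cores are shown for the 10 holders in the 3 roles with at least 3 of them, with the cores in capitals. Sgsh and Atp6v1a are the other holders. A match is a description of the letters and not a measured binding site.

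The members of the membrane, glycosidase and V0 groups that held the motif read as follows.
Lamp1: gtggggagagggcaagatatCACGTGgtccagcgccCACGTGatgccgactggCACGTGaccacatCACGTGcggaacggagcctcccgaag
Mcoln1: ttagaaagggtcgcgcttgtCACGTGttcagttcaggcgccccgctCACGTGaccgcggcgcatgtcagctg
Cln3: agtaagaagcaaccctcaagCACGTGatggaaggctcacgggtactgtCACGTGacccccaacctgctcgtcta
Gaa: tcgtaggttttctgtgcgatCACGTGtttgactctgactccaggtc
Gla: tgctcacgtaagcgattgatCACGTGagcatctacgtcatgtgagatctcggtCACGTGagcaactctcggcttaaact
Glb1: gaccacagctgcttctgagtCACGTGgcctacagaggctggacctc
Naglu: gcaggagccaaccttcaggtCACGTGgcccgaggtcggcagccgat
Atp6v0b: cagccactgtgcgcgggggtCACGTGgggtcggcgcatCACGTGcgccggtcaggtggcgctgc
Atp6v0d1: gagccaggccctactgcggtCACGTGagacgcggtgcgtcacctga
Atp6v0e: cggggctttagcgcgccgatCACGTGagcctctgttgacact

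Lamp1 had 4 cores within its stretch, Mcoln1, Cln3, Gla and Atp6v0b had 2 each, and the other 5 had 1. The stretches are written 5′ to 3′ on the strand of the gene, and those of Lamp1 lie at chr8:13159080-13159171 (plus strand), of Mcoln1 at chr8:3500428-3500499 (plus), of Cln3 at chr7:126583332-126583405 (minus), of Gaa at chr11:119267803-119267848 (plus) and of Gla at chrX:134601174-134601252 (minus). Those of Glb1 lie at chr9:114401010-114401055 (plus), of Naglu at chr11:101070001-101070046 (plus), of Atp6v0b at chr4:117887322-117887385 (minus), of Atp6v0d1 at chr8:105566042-105566087 (minus) and of Atp6v0e at chr17:26676379-26676420 (plus). The cores of the 12 holders lay 3 to 227 bases from the RefSeq start of their window. That start can lie inside a gene as annotated by GENCODE. There Cln3 spans 126571207 to 126585817 and Atp6v0e 26663231 to 26699647, and the stretches of both lie within.

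Total counts were 47557598 in MCC, 46517281 in MEF, 40774101 in BM, 30078366 in PB and 43800105 in iPSC. The unit of level is CPM, the reads of a gene divided by the library size after TMM scaling (trimmed mean of M values) and brought to a common total. With 1 library a group no p-value is given: folds are ratios of these libraries, and the range in brackets is an exact 95% counting interval, which covers counting error only. A gene is called higher or lower where the libraries differ by at least 2-fold and the higher one has at least 5 CPM. The PB library carries a library code apart from those of the other 4, so PB and a possible batch cannot be told apart. Marker genes were read in each library as a check of the labels. All 10 of 10 macrophage markers reached 5 CPM in MCC, with a summed level of 7911 CPM, against 5.57 CPM in MEF, where none did and Adgre1 and Fcgr1 had 0 reads. In BM 10 of 10 reached 5 CPM, with a sum of 1044 CPM, in PB 5 of 10, with 1091, and in iPSC 1 of 10, with 23.3. All 8 of 8 fibroblast markers reached 5 CPM in both MCC and MEF, with sums of 27970 and 18853 CPM. The single markers went both ways. Col3a1 (11734.5 CPM in MCC, 1770 in MEF), Dcn (2152, 141), Lum and Pdgfra were higher in MCC. Col1a1 (6563 CPM in MCC, 8923 in MEF), Pdgfrb (99.8, 479), Col1a2 and Thy1 were lower. Neutrophil markers summed to 4.77 CPM in MCC, against 61020 in BM and 5260 in PB. Erythroid markers summed to 10.4 CPM in MCC, against 10055 in BM and 84843 in PB. B cell markers summed to 0.393 CPM in MCC, against 553 in BM and 1082 in PB. T cell markers summed to 0.717 CPM in MCC, against 42.2 in BM and 489 in PB. In such bulk RNA, fewer cells of a type and less RNA per cell cannot be told apart, and the part of the cell mixture in the values below was not tested.

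MCC held the highest summed level of the lysosomal members, and was the highest library for more of them than any other library was. The 55 members summed to 11800 CPM in MCC, against 7004 in MEF, 7702 in BM, 6150 in PB and 3471 in iPSC, or 1.07% of the counts in MCC against 0.651%, 0.769%, 0.611% and 0.414% in the same order. Of the members, 48 reached 5 CPM in at least 1 library and 44 in all 5. MCC was the highest of the 5 libraries for 27 of the 48 (56.25%), where it was the highest for 21.1% of all 13998 genes at that level. MEF was the highest for 6, BM for 7, PB for 6 and iPSC for 2. In 8 of the 27 MCC was within 1.2-fold of the next library, and under size factors from DESeq2 it was the highest for 23 and under total counts for 24. The lowest library was iPSC for 26 members, PB for 14, MEF for 4, BM for 4 and MCC for 0. The 7 members under 5 CPM everywhere carried the Atp6v prefix: Atp6v0a4, Atp6v1b1, Atp6v1c2, Atp6v1e2, Atp6v1g2, Atp6v1g3 and Atp6v1fnb. The last, a gene beside Atp6v1f on chromosome 6, was counted with the V1 subunits by its prefix alone and is not taken as a pump subunit.

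**Figure D1:**
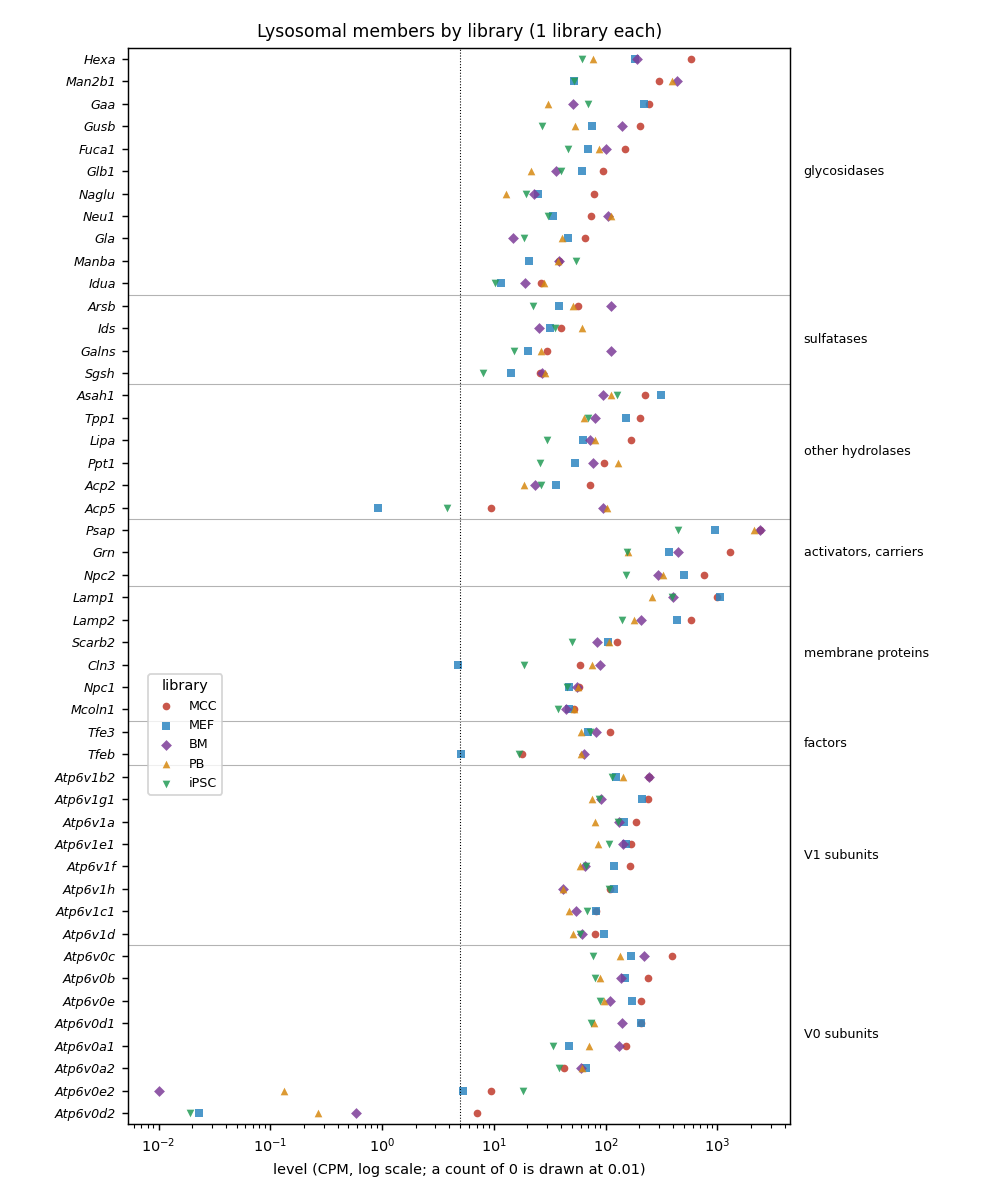
Levels of the 48 members that reached 5 CPM somewhere, in CPM on a log axis, ordered by role; each point is 1 library, the dotted line marks 5 CPM, and the 0 reads of Atp6v0e2 in BM are drawn at 0.01 CPM. MCC points lie at or near the right end in most rows, and Acp5, Tfeb, Cln3, Atp6v0d2 and Atp6v0e2 are spread most widely in their roles.

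The comparison of MCC with MEF sets the complex against fibroblasts, the cell type named in the title. Of 48 members, 16 were higher in MCC (33.3%) and 0 lower, where 15.1% of all genes at 5 CPM were higher and 10.1% lower. At 4-fold, 4 of 48 were higher (8.33%) and 0 lower, where 8.05% of all genes were higher and 2.71% lower, so the share of members higher was near the background at that fold. The median log2 ratio was 0.64 over the 48, 0.56 over all 55 and −0.01 over all genes. Of the 48 ratios, 42 were above 1 and 6 below. Cln3, Acp5 and Atp6v0d2 were at 5 CPM in MCC and under it in MEF, so they could be called only as higher. By role, the calls were 7 of 11 glycosidases, 0 of 4 sulfatases, 2 of 6 lipid, protein and phosphate hydrolases, 2 of 3 activators and carriers, 1 of 6 membrane proteins, 1 of 2 transcription factors, 0 of 8 V1 subunits and 3 of 8 V0 subunits. Fibroblast markers were high in both libraries and macrophage markers in MCC alone, and the part of either in these ratios was not tested.

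**Figure D2:**
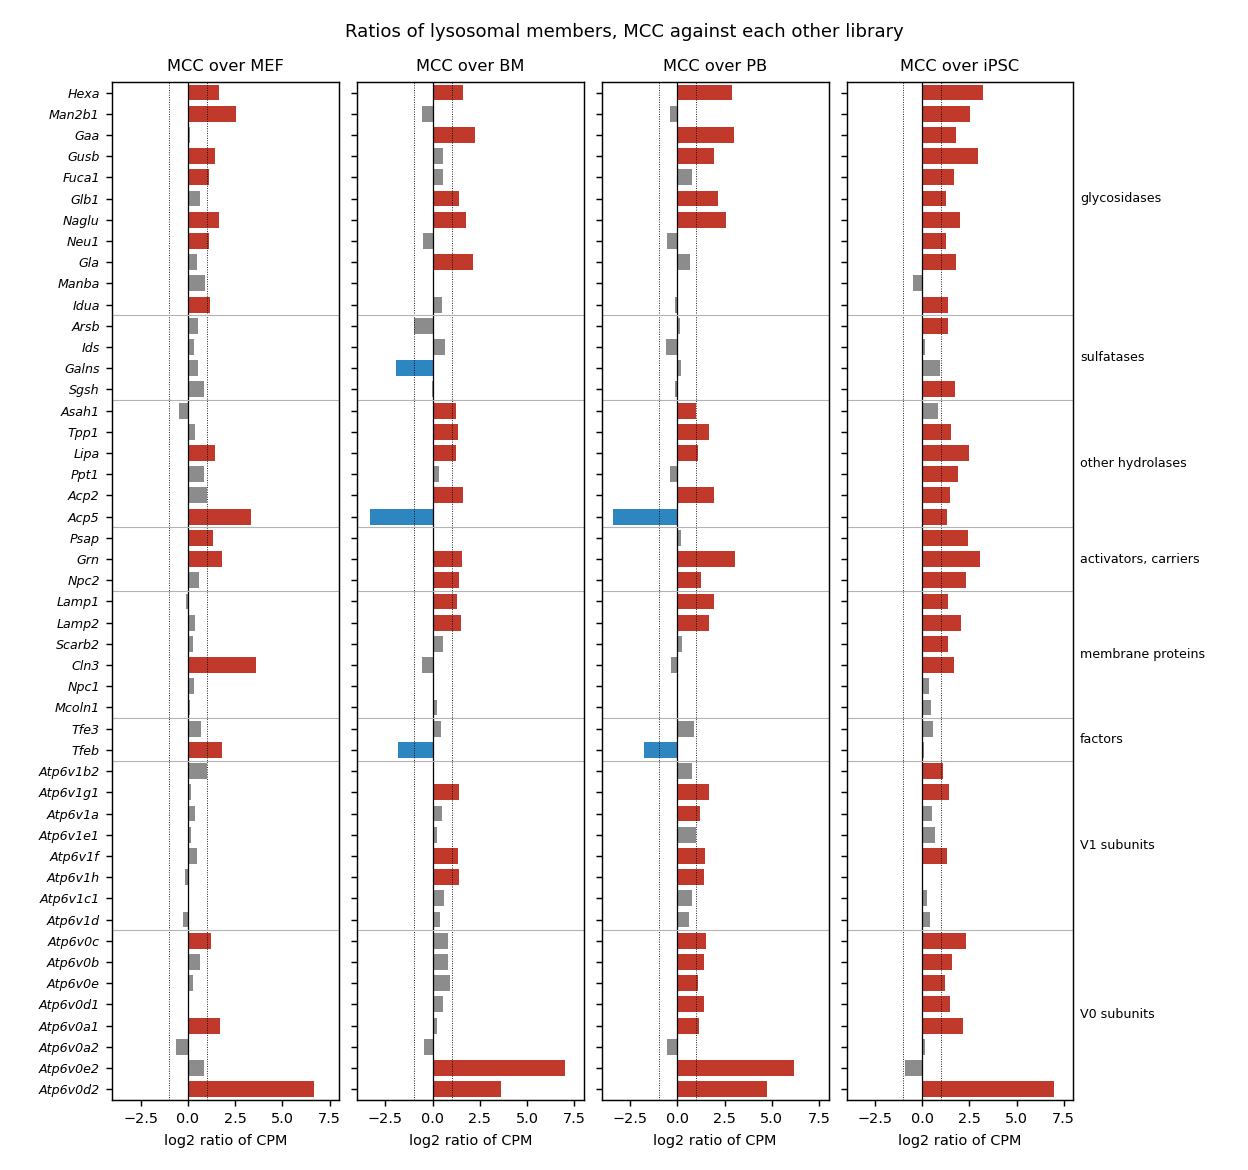
Log2 ratio of MCC over each other library for the 48 members, grouped by role, with counts under 3 set to 3; dotted lines mark 2-fold, red bars are members called higher, blue bars members called lower and grey bars neither. Most members lie right of 0 in each of the 4 comparisons, and Acp5, Tfeb and Galns lie left of the lower line against BM.

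Glycosidases, which cut sugars from glycolipids, glycoproteins and glycosaminoglycans, held the most calls against MEF, and their median log2 ratio was 1.13. Hexa, the alpha subunit of beta-hexosaminidase that is mutated in Tay-Sachs disease, stood at 578 CPM in MCC, 184 in MEF, 189.7 in BM, 77.4 in PB and 61.7 in iPSC. It was 3.14-fold (3.07 to 3.23) higher in MCC than in MEF, 3.04-fold (2.97 to 3.12) than in BM, 7.46-fold (7.15 to 7.79) than in PB and 9.36-fold (9.03 to 9.72) than in iPSC, with MEF and BM close to each other. Hexa lies on mm10 chromosome 9, 59539540 to 59565109, plus strand; 12.8% of its exon bases overlap Tmem202 on the opposite strand, which had 0.717 CPM in MCC. Naglu, which removes N-acetylglucosamine from heparan sulfate, stood at 78.1 CPM in MCC, 24.7 in MEF, 22.7 in BM, 12.9 in PB and 19.5 in iPSC, 3.16-fold (2.95 to 3.39) higher than in MEF and 3.44-fold (3.20 to 3.70) than in BM. It lies on chromosome 11, 101070012 to 101077672, plus strand. In both genes MCC stood alone at the top.

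The other glycosidases called against MEF were Man2b1, Neu1, Idua, Gusb and Fuca1. Man2b1, the lysosomal alpha-mannosidase, stood at 301 CPM in MCC, 51.7 in MEF, 438 in BM, 393 in PB and 51.7 in iPSC, and was 5.83-fold (5.57 to 6.10) higher in MCC than in MEF. Its level in MCC was thus far above the fibroblast and stem cell libraries and 1.45-fold (1.42 to 1.49) below BM. Neu1, a sialidase, was also higher in BM and PB than in MCC, with 74.8 CPM in MCC, 34.2 in MEF, 106 in BM, 111 in PB and 30.6 in iPSC. Idua, which cuts iduronic acid from heparan and dermatan sulfate, had 26.2 CPM in MCC, 11.7 in MEF, 18.9 in BM, 28.1 in PB and 10.2 in iPSC. Both passed the rule against MEF, Neu1 at 2.19-fold (2.06 to 2.33) and Idua at 2.25-fold (2.02 to 2.50). Gusb (beta-glucuronidase) had 205 CPM in MCC, 74.99 in MEF, 140.4 in BM, 53.2 in PB and 26.8 in iPSC. Fuca1, the alpha-fucosidase, was at 149, 69.9, 101, 87.5 and 45.9 CPM in that order. For both MCC led, with BM next, and the ratios to MEF were 2.73-fold (2.62 to 2.85) for Gusb and 2.14-fold (2.05 to 2.23) for Fuca1.

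A further group of glycosidases was called higher in MCC than in BM and not called against MEF. Gaa, which breaks down glycogen and is deficient in Pompe disease, stood at 244 CPM in MCC, 222 in MEF, 51.1 in BM, 30.8 in PB and 69.8 in iPSC. Gla, the alpha-galactosidase of Fabry disease, stood at 65.1 CPM in MCC, 46.5 in MEF, 15.0 in BM, 40.8 in PB and 18.6 in iPSC. Glb1, the beta-galactosidase, stood at 95.2 CPM in MCC, 61.5 in MEF, 36.3 in BM, 21.4 in PB and 40.3 in iPSC. Against BM they were 4.78-fold (4.56 to 5.01), 4.34-fold (3.98 to 4.75) and 2.62-fold (2.47 to 2.79) higher in MCC, while against MEF the ratios were 1.10-fold (1.07 to 1.13), 1.40-fold (1.32 to 1.48) and 1.55-fold (1.47 to 1.63) in the same order. Manba, the beta-mannosidase, was highest in iPSC, at 38.4 CPM in MCC, 20.5 in MEF, 38.0 in BM, 37.4 in PB and 54.7 in iPSC, and passed the rule in no comparison.

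The sulfatases, which remove sulfate from glycosaminoglycans, were the one hydrolase group without a call against MEF, with a median log2 ratio of 0.56, and MCC was the highest library for 0 of 4. Galns, which acts on keratan and chondroitin sulfate, stood at 29.7 CPM in MCC, 20.1 in MEF, 113 in BM, 26.3 in PB and 15.2 in iPSC, 3.79-fold (3.56 to 4.04) lower in MCC than in BM. BM stood alone, and the other 4 libraries lay between 15.2 and 29.7 CPM. Arsb, which acts on dermatan sulfate, was likewise highest in BM, at 56.5 CPM in MCC and 112 in BM, 1.98-fold (1.89 to 2.08) lower and just short of the rule. Of its exon bases 39.9% overlap genes on the opposite strand and, as the strand setting of the counting is not given, its count is uncertain. Ids and Sgsh, which act on heparan sulfate, were at 39.6 and 26.0 CPM in MCC, against 32.0 and 14.4 CPM in MEF with 25.1 and 26.8 CPM in BM. The exons of Sgsh overlap Card14 over 21.6% of their bases, and Card14 had 0.671 CPM in MCC.

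Among the hydrolases of lipids, proteins and phosphates, Lipa, Tpp1 and Acp2 were highest in MCC, Asah1 in MEF, and Ppt1 and Acp5 in PB. Lipa, the acid lipase that frees cholesterol from its esters, stood at 169 CPM in MCC, 62.5 in MEF, 72.1 in BM, 79.6 in PB and 30.0 in iPSC. It was 2.70-fold (2.59 to 2.83) higher in MCC than in MEF, 2.34-fold (2.24 to 2.45) than in BM, 2.12-fold (2.03 to 2.22) than in PB and 5.63-fold (5.33 to 5.95) than in iPSC. The call against PB was lost under DESeq2 size factors and under total counts. Acp2, the lysosomal acid phosphatase, stood at 71.9 CPM in MCC, 36.0 in MEF, 23.6 in BM, 18.8 in PB and 26.3 in iPSC. It came just short of the rule against MEF, at 1.997-fold (1.88 to 2.12), and passed it against BM at 3.05-fold (2.84 to 3.28). Of the exon bases of Acp2 12.6% overlap Ddb2 on the opposite strand. Ddb2 had 3.61 CPM in MCC, 1.94 in MEF, 8.99 in BM, 32.0 in PB and 6.96 in iPSC. As the strand setting of the counting is not given, reads of the shared bases cannot be assigned to either gene. Tpp1, a peptidase deficient in CLN2 disease, had 202 CPM in MCC, 154 in MEF, 80.5 in BM, 63.7 in PB and 70.0 in iPSC, and was higher in MCC than in BM at 2.51-fold (2.41 to 2.62). Asah1, the acid ceramidase, was highest in MEF, at 225 CPM in MCC and 316 in MEF, against 95.6 in BM, 112 in PB and 127 in iPSC. It was 1.41-fold (1.37 to 1.44) lower in MCC than in MEF and 2.36-fold (2.27 to 2.45) higher than in BM. Ppt1, which removes palmitate from proteins, was highest in PB, at 97.4 CPM in MCC, 53.8 in MEF, 76.8 in BM, 129.7 in PB and 25.7 in iPSC.

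Acp5, the tartrate-resistant acid phosphatase made by osteoclasts and some macrophages, had the widest range of the hydrolases. It stood at 9.44 CPM in MCC, 0.925 in MEF, 95.6 in BM, 102 in PB and 3.83 in iPSC. MCC was thus 10.2-fold (7.37 to 14.5) above MEF, and 10.1-fold (9.14 to 11.2) below BM and 10.8-fold (9.75 to 12.0) below PB, which were close to each other. Acp5 lies on chromosome 9, 22126727 to 22135711, minus strand. Of 8 osteoclast markers 4 reached 5 CPM in MCC, and their summed level was 166 CPM in MCC, 229 in MEF, 2270 in BM, 830 in PB and 71.0 in iPSC. Of these markers Ctsk had 102 CPM in MCC, Nfatc1 27.9, Itgb3 20.4 and Mmp9 14.7, and Ocstamp had 0.648, Oscar 0.278, Dcstamp 0.255 and Calcr 0. In BM and PB the last 4 were at most 2.04 CPM as well, and Mmp9 made up most of the sum, with 2069 CPM in BM and 517 in PB.

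The activators and soluble carriers included the member with the highest level per length. Psap, the precursor of the saposins that help hydrolases reach their lipids, stood at 2419 CPM in MCC, 952 in MEF, 2424 in BM, 2125 in PB and 445 in iPSC. It was 2.54-fold (2.51 to 2.57) higher in MCC than in MEF, and MCC, BM and PB lay within 1.2-fold of each other. Per kilobase of exons Psap was also the member with the highest level in MCC, at 881 CPM per kilobase, before Grn at 377, Lamp1 at 371 and Hexa at 289. Grn, the precursor of the lysosomal granulins, stood at 1309 CPM in MCC, 372 in MEF, 441 in BM, 160.3 in PB and 155 in iPSC. It was 3.52-fold (3.46 to 3.58) higher in MCC than in MEF, 2.97-fold (2.92 to 3.02) than in BM, 8.17-fold (7.93 to 8.41) than in PB and 8.46-fold (8.27 to 8.67) than in iPSC. No other library came near MCC for Grn, which lies on chromosome 11, 102430315 to 102437048, plus strand. Npc2, which carries cholesterol inside the lysosome, stood at 767 CPM in MCC, 507 in MEF, 292 in BM, 327 in PB and 151 in iPSC, 1.51-fold (1.49 to 1.54) above MEF and 2.63-fold (2.58 to 2.69) above BM.

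The membrane proteins of the lysosome differed less between MCC and MEF, with a median log2 ratio of 0.28 and 1 call of 6. Lamp1 and Lamp2 encode the glycoproteins that coat the inner face of the membrane. Lamp1 stood at 992 CPM in MCC, 1060.2 in MEF, 405 in BM, 261 in PB and 389 in iPSC. Lamp2 stood at 578 CPM in MCC, 438 in MEF, 207 in BM, 180.0 in PB and 139.8 in iPSC. MCC and MEF were close for Lamp1, at 1.07-fold (1.06 to 1.08) lower in MCC, while both genes were higher in MCC than in BM, Lamp1 at 2.45-fold (2.40 to 2.49) and Lamp2 at 2.79-fold (2.73 to 2.87). Scarb2, the receptor that brings glucocerebrosidase to the lysosome, had 126 CPM in MCC, 105 in MEF, 84.6 in BM, 106 in PB and 49.6 in iPSC. Npc1, the cholesterol exporter, had 58.1 CPM in MCC and 44.9 to 56.9 CPM in the other 4 libraries, and Mcoln1, a calcium channel, at 51.9 CPM in MCC and 37.6 to 51.9 in the others. These last 2 genes varied least of the membrane proteins and passed the rule in no comparison.

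Cln3, the membrane protein mutated in juvenile neuronal ceroid lipofuscinosis, was the exception among the membrane proteins. It stood at 58.7 CPM in MCC, 4.81 in MEF, 88.3 in BM, 75.5 in PB and 18.5 in iPSC, 12.2-fold (10.6 to 14.1) higher in MCC than in MEF. MEF was the lowest library and iPSC the next, and MCC was 1.504-fold (1.43 to 1.58) below BM. Cln3 lies on chromosome 7, 126571207 to 126585817, minus strand, and 7.65% of its exon bases overlap Apobr on the opposite strand. Apobr had 41.9 CPM in MCC, 26.0 in MEF, 192 in BM, 157 in PB and 6.91 in iPSC. Without a stated strand setting, reads of the shared bases cannot be assigned to either gene.

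The genes of the transcription factors differed from each other. Tfeb stood at 17.8 CPM in MCC, 5.13 in MEF, 64.7 in BM, 60.9 in PB and 16.95 in iPSC. It was 3.47-fold (2.99 to 4.05) higher in MCC than in MEF, and 3.63-fold (3.35 to 3.94) lower than in BM and 3.42-fold (3.14 to 3.72) lower than in PB. BM and PB were close, as were MCC and iPSC at 1.05-fold (0.953 to 1.16). Tfe3 was highest in MCC, at 110.3 CPM, against 69.0 in MEF, 82.2 in BM, 60.6 in PB and 73.0 in iPSC, and passed the rule in no comparison. Tfeb and Acp5 were the only members above the rule against MEF and below it against both BM and PB. Tfeb lies on chromosome 17, 47737030 to 47792419, plus strand.

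Of the 23 genes with the Atp6v prefix, 16 reached 5 CPM. The median log2 ratio of MCC to MEF was 0.75 for V0 subunits and 0.17 for V1 subunits. Of the 8 V1 subunits at 5 CPM, 0 were called against MEF. Atp6v1a and Atp6v1b2 encode the subunits that form the ring where ATP is split. Atp6v1a stood at 187 CPM in MCC, 145 in MEF, 131 in BM, 80.2 in PB and 129 in iPSC, and Atp6v1b2 at 245 CPM in MCC, 123 in MEF, 245 in BM, 143 in PB and 115 in iPSC. Atp6v1b2 was just short of the rule against MEF at 1.98-fold (1.92 to 2.05), and MCC and BM did not differ beyond the counting error. The stalk subunits Atp6v1g1 and Atp6v1e1 were at 240.1 and 169.8 CPM in MCC, against 211 and 153 CPM in MEF, 90.2 and 144 in BM, 75.2 and 85.2 in PB and 88.2 and 108 in iPSC. Atp6v1c1 and Atp6v1d were at 81.6 and 79.8 CPM in MCC, against 82.5 and 96.8 CPM in MEF. Of V1, the 3 subunits called higher in MCC than in BM were Atp6v1g1 at 2.66-fold (2.56 to 2.76), Atp6v1h at 2.60-fold (2.46 to 2.75) and Atp6v1f at 2.54-fold (2.42 to 2.65). Atp6v1h, a regulatory subunit, stood at 109 CPM in MCC, 120.0 in MEF, 41.9 in BM, 41.2 in PB and 107 in iPSC, and Atp6v1f, a subunit of the central stalk, at 165, 118, 65.3, 59.4 and 67.5 CPM in that order.

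The membrane sector held the 3 pump calls against MEF: Atp6v0a1, Atp6v0c and Atp6v0d2. Atp6v0c encodes the main subunit of the proteolipid ring that carries protons, and stood at 389.7 CPM in MCC, 168 in MEF, 221 in BM, 134 in PB and 77.9 in iPSC. It was 2.32-fold (2.25 to 2.38) higher in MCC than in MEF and 5.001-fold (4.83 to 5.18) than in iPSC. Its near-identical pseudogene copies can share reads with it: Atp6v0c-ps2 had 34.7 CPM in MCC, 13.3 in MEF, 16.6 in BM, 8.14 in PB and 33.9 in iPSC. Summed with both pseudogene rows, the ratios were 2.34-fold to MEF and 3.78-fold to iPSC. Atp6v0b, the other ring subunit, stood at 237 CPM in MCC, 151 in MEF, 136 in BM, 88.4 in PB and 80.5 in iPSC, and Atp6v0e at 207, 172, 109.5, 96.5 and 88.9 CPM in that order. Neither was called against MEF, and both were called against PB and iPSC.

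The pump uses alternative a subunits, which steer it to different membranes, and their mix differed between the libraries. Atp6v0a1 stood at 153 CPM in MCC, 47.5 in MEF, 132 in BM, 70.4 in PB and 33.5 in iPSC, 3.21-fold (3.06 to 3.38) higher in MCC than in MEF. Atp6v0a2 had the lowest ratio to MEF of the 48 members at 5 CPM, with 42.8 CPM in MCC and 67.1 in MEF, with 59.7 in BM, 61.9 in PB and 37.9 in iPSC, 1.57-fold (1.48 to 1.66) lower and short of the rule. The a3 subunit is encoded by Tcirg1, which lacks the prefix and is no member; it had 178 CPM in MCC, 73.9 in MEF, 221 in BM, 136 in PB and 48.0 in iPSC. Of the summed level per length of the 4 a-subunit genes, Atp6v0a1 took 34.1% in MCC, against 21.7% in MEF, 26.1% in BM, 21.7% in PB and 23.2% in iPSC. Atp6v0a2 took 9.31% in MCC, against 29.9% in MEF, 11.5% in BM, 18.6% in PB and 25.6% in iPSC. The a2 share was thus lowest in MCC and highest in MEF. Atp6v0a4, known from kidney and inner ear, had 0.162 CPM in MCC and 4.30 CPM in iPSC.

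Atp6v0d2, the alternative d subunit known from osteoclasts and macrophages, was low, with most of its reads in MCC. It stood at 7.13 CPM in MCC (308 reads), 0.0231 in MEF (1 read), 0.589 in BM (24 reads), 0.268 in PB (8 reads) and 0.0191 in iPSC (1 read). The ratio was 308-fold (54.9 to 12216) to MEF, 12.1-fold (7.98 to 19.2) to BM and 26.6-fold (13.3 to 62.2) to PB. The osteoclast markers given beside Acp5 apply here too, with 4 of 8 at 5 CPM in MCC and 0 reads of Calcr. It took 3.34% (exact 95% interval 2.98 to 3.72) of the reads of both d-subunit genes in MCC, against 0.418% (0.268 to 0.622) in BM. Per length it was the minor form in MCC too, with 2.23% of the summed level. The common form Atp6v0d1 stood at 207 CPM in MCC, 205 in MEF, 140.3 in BM, 78.9 in PB and 73.9 in iPSC, close between MCC and MEF. Atp6v0d2 lies on chromosome 4, 19876841 to 19922605, minus strand. Atp6v0e2, the alternative e subunit, had 9.49 CPM in MCC, 5.32 in MEF, 0 reads in BM (the floor of 3 counts is 0.0736 CPM), 0.134 in PB and 18.1 in iPSC. With BM taken at that floor, MCC was 129-fold above BM, and the exact 95% interval starts at 104-fold. MCC was 1.90-fold (1.69 to 2.14) below iPSC. The share of Atp6v0e2 in the e-subunit reads was 4.39% in MCC, 3.005% in MEF, 0% in BM, 0.139% in PB and 16.9% in iPSC.

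**Figure D3:**
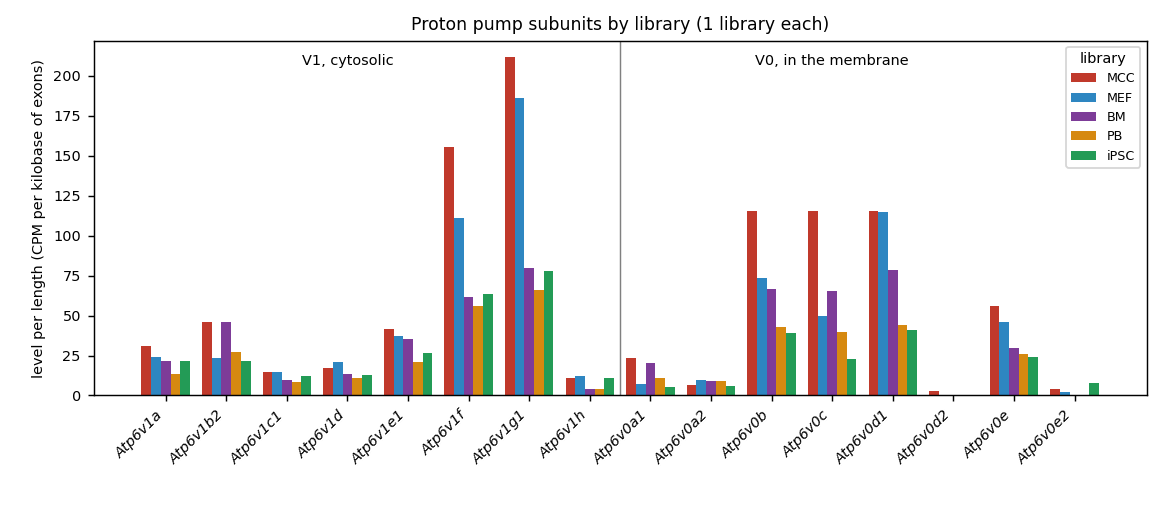
Levels of the 16 proton pump genes that reached 5 CPM somewhere, in CPM per kilobase of exons, with 1 bar a library and V1 subunits left of V0 subunits. The highest level in MCC is that of Atp6v1g1 at 212 CPM per kilobase, and in V0 the bars of Atp6v0a1 and Atp6v0c are higher in MCC than in MEF.

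Against the native blood sources, more members differed, in a setting where more genes of every kind did. Against BM, 18 of 48 members were higher in MCC (37.5%) and 3 lower, where 29.3% of all genes were higher and 24.8% lower, and the median log2 ratio was 0.57 beside 0.11 over all genes. The 3 lower members were Galns, Acp5 and Tfeb. At 4-fold 4 of 48 were higher (8.33%) and 1 lower, where 15.6% of all genes were higher and 13.5% lower. Against PB, 24 of 48 were higher (50%) and 2 lower, Acp5 and Tfeb, where 38.6% of all genes were higher and 26.0% lower. At 4-fold 7 members were higher and 1 lower, where 21.5% of all genes were higher and 15.4% lower. The median log2 ratio to PB was 1.001, beside 0.38 over all genes, and fell to 0.72 under DESeq2 size factors, which moved all genes by −0.28 and ended 6 calls (Asah1, Atp6v0a1, Atp6v0e, Atp6v1a, Lipa and Npc2). In this comparison 11 of 16 pump genes were higher, 7 of 8 in V0 and 4 of 8 in V1. Atp6v0d2 and Atp6v0e2 were under 5 CPM in both BM and PB and could be called only as higher. Neutrophil, erythroid, B cell and T cell markers summed higher in BM and PB than in MCC, as given above. The part of these cell types in the ratios was not tested.

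Against iPSC the members differed most often, with 33 of 48 higher in MCC (68.75%) and 0 lower, where 24.3% of all genes were higher and 19.2% lower. Acp5 and Atp6v0d2 were under 5 CPM in iPSC and could be called only as higher. The median log2 ratio was 1.36, beside 0.14 over all genes, and 46 of 48 ratios were above 1, of which 6 without a call crossed 1 under another scaling. Pluripotency markers summed to 0.833 CPM in MCC, against 2585 in iPSC, macrophage markers to 7911 against 23.3 and fibroblast markers to 27970 against 379, and their part in these ratios was not tested. At 4-fold 12 were higher (25%) and 0 lower, where 11.3% of all genes were higher and 9.77% lower. Total-count scaling moved all genes by −0.39, ended 10 of these calls (Acp5, Arsb, Atp6v0e, Atp6v1b2, Atp6v1f, Glb1, Idua, Lamp1, Neu1 and Scarb2) and added 2 on the lower side, Atp6v0a4 and Atp6v0e2. By role 10 of 11 glycosidases, 2 of 4 sulfatases, 5 of 6 other hydrolases, 3 of 3 activators, 4 of 6 membrane proteins, 3 of 8 V1 and 6 of 8 V0 subunits were higher. Gusb at 7.65-fold (7.23 to 8.10), Psap at 5.44-fold (5.36 to 5.52), Npc2 at 5.08-fold (4.96 to 5.21) and Man2b1 at 5.83-fold (5.59 to 6.08) were among them. Neither Tfeb nor Tfe3 was called. The 4 comparisons share the MCC library, so they are not independent of each other.

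**Figure D4:**
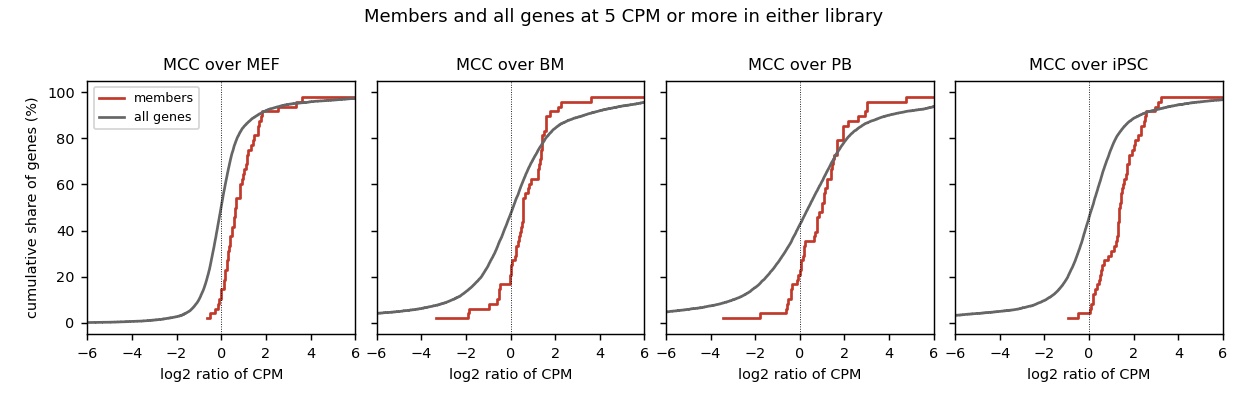
Log2 ratio of MCC over each other library for the 48 members and for all genes at 5 CPM, drawn as cumulative shares; the x axis is the log2 ratio and the y axis the percent of genes at or below it. The members lie right of all genes in the middle of each panel and cross them towards the top, with a median of 0.64 against MEF, 0.57 against BM, 1.001 against PB and 1.36 against iPSC.

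MCC stood 2-fold or more above every other library for 5 of 48 members, where it did so for 4.24% of all genes. They were Hexa, Naglu, Grn, Lipa and Atp6v0d2, and Lipa depended on the scaling as given above. Atp6v0d2 reached 5 CPM in MCC alone, so it entered the 48 through MCC and could be called only as higher. Called in no comparison were 9 members, namely Manba, Ids, Npc1, Mcoln1, Tfe3, Atp6v0a2, Atp6v1c1, Atp6v1d and Atp6v1e1.

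Other lysosomal genes, from a list of 50 without the cathepsins, were read in the same way. Against MEF 14 of 50 were higher in MCC (28%, where 15.1% of all genes were) and 0 lower, and the median log2 ratio was 0.47. Against BM 22 were higher (44%, beside 29.3% of all genes) and 2 lower, where 24.8% of all genes were lower. Against PB 25 of 49 were higher (51.0%, beside 38.6%) and 3 lower, where 26.0% were lower. Against iPSC 35 were higher (70%, beside 24.3%) and 1 lower, where 19.2% were lower. Tfec and Laptm5 were under 5 CPM in MEF, Laptm4b in BM and PB, Tfec in PB, and Mitf, Tfec and Mfsd8 in iPSC. In these comparisons they could be called only as higher. Rragd was under 5 CPM in MCC and could be called only as lower. MCC was the highest library for 26 of the 50 (52%), beside 21.1% of all genes. The genes with the largest ratios to MEF were Laptm5, a blood cell protein of the lysosomal membrane, Tfec, a relative of Tfeb, and Hgsnat, which acetylates heparan sulfate in the lysosome. Tfec stood at 35.7 CPM in MCC, 0.856 in MEF, 24.2 in BM, 1.34 in PB and 0.0191 in iPSC, 41.7-fold (30.1 to 59.5) higher in MCC than in MEF. Hgsnat stood at 378 CPM in MCC, 44.9 in MEF, 87.8 in BM, 73.7 in PB and 39.9 in iPSC, 8.41-fold (8.03 to 8.82) higher than in MEF. Laptm5 had 668 CPM in MCC and 0.671 in MEF, and at 835 in BM and 1179 in PB. The lowest ratios were those of Igf2r, a receptor that sorts hydrolases to the lysosome, Ostm1, partner of a lysosomal chloride transporter, and Rragd, a GTPase of nutrient sensing. Igf2r stood at 263 CPM in MCC and 417 in MEF, 1.59-fold (1.55 to 1.62) lower, and none of the 3 passed the rule.

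Ratios were also read for members with and without CACGTG in the promoter window. The 9 members without a window were in neither group. Among them were Atp6v0d2 and Atp6v0a2, with the highest and lowest log2 ratios to MEF of members at 5 CPM (6.68 and −0.65). Relative to MEF the median log2 ratio was 0.43 among the 12 holders, 2 of them called higher (Naglu and Cln3). It was 0.998 for the 27 members at 5 CPM with a window and no match, 13 of them called higher, where 15.1% of all genes were. The ranges overlapped, from −0.10 to 3.61 for holders and from −0.28 to 3.35 for the others, and Cln3 at the top is a holder. Against BM 5 holders and 9 others were called higher, against PB 8 and 12, and against iPSC 10 and 20. Of all genes 29.3%, 38.6% and 24.3% were called higher in that order. Called lower were 0 holders, and 2 others against BM and 2 against PB, where 24.8% and 26.0% of all genes were. Against BM the medians were 0.86 for holders and 0.54 for the others, against PB 1.30 and 0.86, and against iPSC 1.52 and 1.45. The order of the groups was thus not the same in all 4 comparisons, and no test was made of it.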

How the data were processed

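The authors deposited whole-number read counts per gene symbol, not normalized. The mm10 build, STAR and featureCounts are named in the submitters' processing notes; for versions, annotation and strand setting the sources used here give nothing. All 5 columns were matched to libraries by title, and 0 were unused. CPM was computed on TMM-scaled library sizes with edgeR 4.0.16 in R 4.3.3; other steps used Python 3.11.15, numpy 2.4.6, pandas 2.3.3, scipy 1.17.1 and matplotlib 3.10.9. A ratio was called at 2-fold with at least 5 CPM in the higher library, counts under 3 set to 3. Intervals are 95% Clopper-Pearson on the conditional binomial and cover counting error only; reads are not independent molecules. A count of 0 gives a ratio with 3 counts in its place, and a gene with 1 to 3 reads its raw ratio. The calculation was tested on simulated data. Members and lists were chosen with earlier results of these data known. Named were all members by role, with all levels for those called against MEF or BM, and the 3 other genes at either end against MEF; members outside this are given to compare relatives. Positions and exon lengths come from GENCODE M21 on mm10, promoters from RefSeq on GRCm38.p6. Scaling alternatives were DESeq2 1.42.0 size factors, total counts, and TMM without 70 genes. These 70 were the 10 most abundant genes per library, genes of mitochondrial DNA, and alpha and beta globin genes. Other alternatives were no minimum or 20 CPM, 4-fold, and all members for medians.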

Additional observations from a re-analysis of the deposited data

How the results depend on the processing

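No paired analysis was possible because each group is 1 library. Under the 3 other scalings 0 called ratios changed sign, and 16 ratios without a call, all within 1.29-fold of 1, did (1 to MEF, 2 to BM, 7 to PB and 6 to iPSC), so their direction is not settled. At 4-fold in place of 2-fold, the members higher in MCC were 4 against MEF, 4 against BM, 7 against PB and 12 against iPSC. The lower ones were 1 against BM and 1 against PB. Of the other lysosomal genes 5, 6, 13 and 12 were higher in that order (10%, 12%, 26.5% and 24%). Of all genes 8.05%, 15.6%, 21.5% and 11.3% were, so the share was near the background against MEF and below it against BM. Lower were 1 other lysosomal gene against BM, 1 against PB and 1 against iPSC, where 13.5%, 15.4% and 9.77% of all genes were. With no minimum level 1 member was lower against MEF and 2 against iPSC. Total counts gave 2 lower members against iPSC, and medians of 0.43 against BM, 0.87 against PB and 0.96 against iPSC. DESeq2 size factors gave medians of 0.47 against BM, 0.72 against PB and 1.30 against iPSC, and 5 lower other lysosomal genes against PB. Over all 55 members the median was 0.56 against MEF and 0.79 against PB. DESeq2 size factors moved all ratios by −0.10 (log2) to BM and −0.28 to PB, and total counts by −0.14 to BM, −0.13 to PB and −0.39 to iPSC, by construction of the scaling. Under both, Arsb passed the rule as lower against BM, and against MEF no call of a member changed. The other lysosomal genes higher against MEF went from 14 to 13 under both. Total counts ended 4 calls against PB and 10 against iPSC. Of the counts of members higher, 24 of 28 stayed within 1.5 times. With 1 library a group, the depth sets the counting interval only, and differences between cultures or animals could not be measured.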
